A study of Mus musculus with 8 samples.

Results

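The 6 genes described here make, convert and carry prostaglandins: Ptgs1, Ptgs2, Ptgis, Ptges, Ptgds and Slco2a1. They were found by gene symbol among the 31053 genes of the count matrices, and all 6 were present. The matrices hold single-cell RNA-seq libraries from the cortical plate of 8-week-old mice, and the study asked how laminins of the vascular basement membrane bear on the zones of cerebral microvessels. There are 4 groups. Lama4-/- mice lack the laminin alpha4 chain, and a WT group was prepared as their control. Tek-Cre:Lama5-/- mice carry Cre under the Tek promoter, which is active in endothelium and also in blood cells, against the laminin alpha5 gene, and a separate WT group was prepared as their control. Brains of 3 mice were pooled per group, and each group was deposited as 2 samples. The groups are called Lama4-control WT and Lama5-control WT below. The labels do not say whether the Lama5-control WT mice carried Cre or floxed alleles. The Lama4-/- samples held identical values and were counted as 1 library, which leaves 7 distinct libraries. The libraries of a group may come from the same pool, so p-values cover only the spread between these libraries.

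Prostaglandins are short-lived lipid signals. Phospholipase A2 enzymes release arachidonic acid from membranes, and the cyclooxygenases Ptgs1 and Ptgs2 turn it into prostaglandin H2. Ptgs1 is usually described as the constitutive form and Ptgs2 as the form induced by cytokines and activity. Terminal synthases then act on prostaglandin H2: Ptgis makes prostacyclin, which relaxes smooth muscle and keeps platelets quiet, Ptges makes prostaglandin E2, and Ptgds makes prostaglandin D2. Slco2a1 carries prostaglandins across the plasma membrane. In the brain, endothelial Ptgs2 together with Ptges is best known as the source of the prostaglandin E2 that drives fever.

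Of the 6 genes, 5 had a start-site sequence in the RefSeq table of build GRCm38.p6, and Ptgis did not. The 250 bases upstream of both cyclooxygenase genes are shown because the later results separate these genes by cell class. Capitals mark a match to any of 4 motifs searched on both strands. The letters TTGCGCAA are a palindrome bound by C/EBP factors. The letters CACGTG are known as an E-box. The letters ACGTCA form the core of a cAMP response element. The letters TATAAA are the TATA box. The Ptgs1 window lies on the plus strand at chr2:36230176-36230425 and the Ptgs2 window on the plus strand at chr1:150099781-150100030.
Ptgs1: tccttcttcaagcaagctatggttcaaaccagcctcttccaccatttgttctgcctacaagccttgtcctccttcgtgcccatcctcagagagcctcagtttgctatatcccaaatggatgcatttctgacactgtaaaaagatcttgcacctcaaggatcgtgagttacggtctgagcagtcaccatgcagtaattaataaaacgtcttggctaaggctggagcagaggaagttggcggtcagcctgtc
Ptgs2: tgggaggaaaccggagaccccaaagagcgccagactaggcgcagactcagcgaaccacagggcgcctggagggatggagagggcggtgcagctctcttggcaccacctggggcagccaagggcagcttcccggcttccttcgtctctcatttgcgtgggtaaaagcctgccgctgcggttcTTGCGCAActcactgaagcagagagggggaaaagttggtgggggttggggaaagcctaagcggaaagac
The Ptgs2 window holds TTGCGCAA at position -69 from the annotated start, and the Ptgs1 window holds none of the 4 motifs. Of 32851 promoters in the same table, 0.164% hold TTGCGCAA in the 250 bases upstream, 6.02% hold CACGTG, 6.47% hold ACGTCA and 12.4% hold TATAAA. A further Ptgs2 match lies just downstream of the annotated start, in 26 bases at chr1:150100035-150100060, where ACGTCA at +13 overlaps CACGTG at +17.
Ptgs2 start: tcaccactACGTCACGTGgagtccgc
In the 300 bases around the start, 7.51% of promoters hold ACGTCA and 7.15% hold CACGTG. Slco2a1 holds TATAAA at -29, and Ptges and Ptgds hold none of the 4 upstream of their starts. The starts used for these genes lie inside the gene spans given below, not at their ends. The Slco2a1 window is chr9:103008237-103008486 and the Ptges window chr2:30903298-30903547. A match describes the letters only.

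The 7 libraries held 35479306 to 48314458 unique molecular identifiers (UMIs, each standing for 1 captured RNA molecule). After removal of barcodes with under 500 genes or at least 15% mitochondrial UMIs, and of 3015 likely doublets, 47239 cells of 56961 barcodes remained, with 2901 to 6552 median UMIs per cell. Clustering gave 42 clusters, named "-like" from marker lists. The 26296 endothelial-like cells were split into 17 sub-clusters, of which 16968 cells fell in arterial-like, capillary-like or venous-like zones. No pair of libraries shared more than 21 cell barcodes. Levels below are UMIs of the gene per 1000000 UMIs (CPM) summed over the cells of a class in a library. The targeted genes followed the labels in endothelial-like cells: Lama4 stood at 45.3 and 44.8 CPM in its WT libraries and at 0.0603 CPM in the Lama4-/- library, and Lama5 at 42.4 and 41.7 CPM in its WT libraries and at 21.8 and 24.0 CPM in the Tek-Cre:Lama5-/- libraries. The WT groups themselves differed widely: 55.9% of 13268 genes differed between them in endothelial-like cells, and capillary-like cells were 33.5% and 33.1% of endothelial-like cells in the Lama4-control WT libraries against 20.3% and 20.5% in those of the Lama5 experiment. Each knockout is therefore set against its own WT group.

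**Figure D1:**
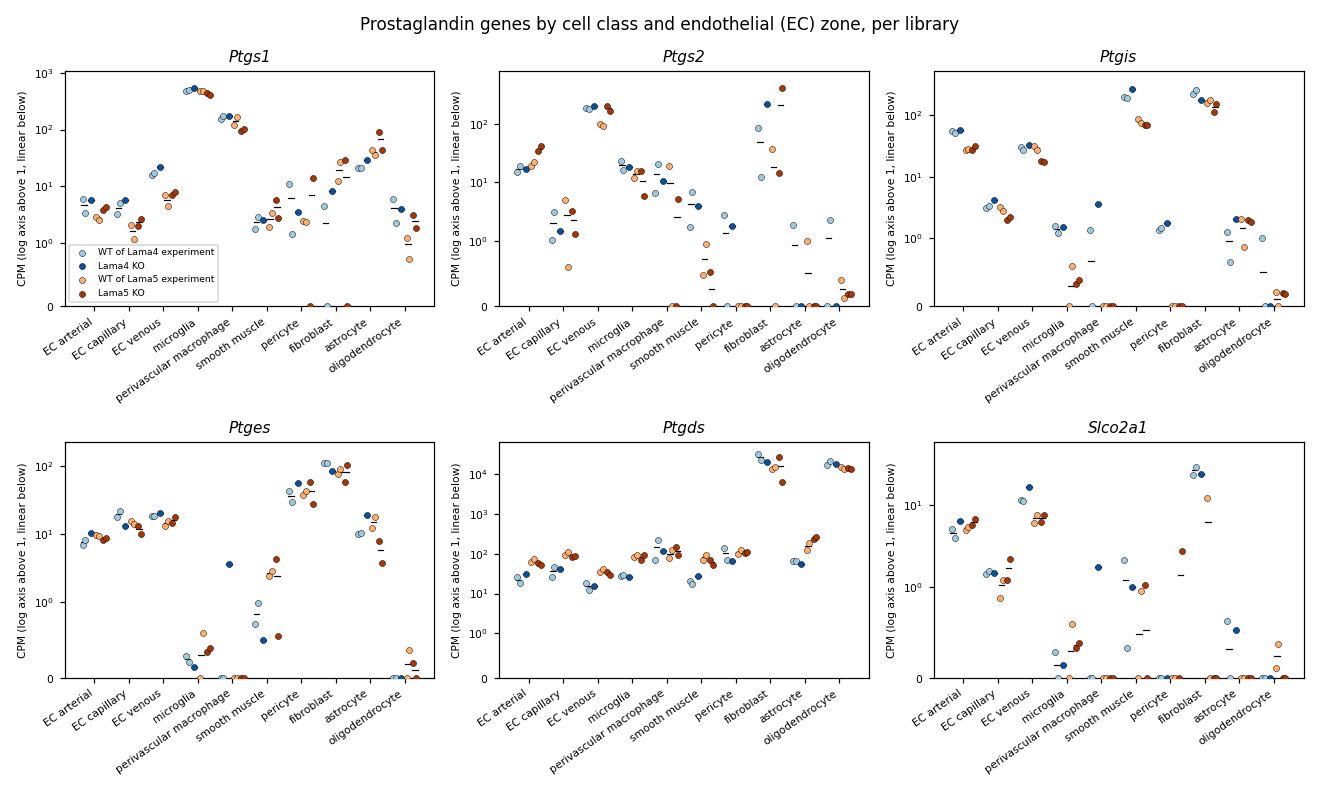
Levels of the 6 genes in each library by cell class and endothelial zone, in CPM on an axis that is linear near 0 and logarithmic above, with short lines at group means. Ptgs1 is highest in microglia-like cells at 398 to 540 CPM, Ptgs2 stands at 92.5 to 203 CPM in venous-like cells, and Ptgds passes 10000 CPM in oligodendrocyte-like cells of every library.

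Ptgs1 (ENSMUSG00000047250, chromosome 2, 36230426 to 36252272, plus strand, GRCm38) had most of its UMIs in microglia-like cells. Microglia-like cells held between 80.4% and 92.2% of its UMIs in each group. Its level there was 482 and 503 CPM in the Lama4-control WT libraries, 540 CPM in the Lama4-/- library, 475 and 478 CPM in the Lama5-control WT libraries, and 439 and 398 CPM in the Tek-Cre:Lama5-/- libraries. Perivascular macrophage-like cells followed at 93.6 to 176 CPM, and the ranges of these classes over libraries overlapped neither each other nor that of astrocyte-like cells, the next in order. In venous-like endothelium Ptgs1 reached 4.56 to 22.0 CPM, and in capillary-like endothelium 1.21 to 5.69 CPM. The venous zone was uneven across its sub-clusters, which are described below. After thinning each cell to 2000 UMIs, 6.17% to 18.2% of cells in sub-cluster 15 had a Ptgs1 UMI (29 to 112 cells per library). In sub-clusters 3 and 9 the shares were 0.101% to 0.993% and 0.234% to 0.868%, and in microglia-like cells 53.7% to 64.2%.

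In microglia-like cells the Tek-Cre:Lama5-/- libraries were both below their WT libraries, and the log2 fold change was -0.10 (SE 0.055, adjusted p = 0.252, edgeR's quasi-likelihood test with Benjamini-Hochberg adjustment over all genes tested), so the difference did not pass the test. In that class 12.4% of 9429 genes passed, and 0 of the 3 genes of the set that were tested did. None of the 3 had an unadjusted p under 0.05, and DESeq2 gave an adjusted p for 1 of the set there and called 0. In endothelial-like cells, where 18.8% of 13164 genes passed, Ptgs1 stood at 3.82 and 2.78 CPM in the WT libraries and at 4.85 and 4.79 CPM in the Tek-Cre:Lama5-/- libraries. The groups did not overlap, and the log2 fold change was 0.62 (SE 0.176, edgeR adjusted p = 0.0116). Microglial markers moved with it: all 7 listed were detected, and their summed level in endothelial-like cells was 86.6 and 87.4 CPM in the WT libraries and 113 and 111 CPM in the Tek-Cre:Lama5-/- libraries. As a share of the microglial level, endothelial Ptgs1 was 0.805% and 0.581% in the WT libraries and 1.10% and 1.20% in the Tek-Cre:Lama5-/- libraries. The part of microglial RNA in this result was not tested. The call was lost with DESeq2 (adjusted p = 0.3) and without replicate 2 of the WT group (log2 fold change 0.41, edgeR adjusted p = 0.152). The change in microglia-like cells was lower than that in endothelial-like cells by 0.71 on the log2 scale (interaction -0.71, SE 0.178, edgeR adjusted p = 0.00251). In that interaction 5.38% of 13308 genes passed. Its call was lost with DESeq2 (-0.72, adjusted p = 0.277) and without replicate 2 of the WT group (-0.47, edgeR adjusted p = 0.243) or replicate 2 of the Tek-Cre:Lama5-/- group (-0.65, edgeR adjusted p = 0.0923).

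Ptgs2 (ENSMUSG00000032487, chromosome 1, 150100031 to 150108227, plus strand) had most of its UMIs in endothelial-like and above all venous-like cells. Endothelial-like cells held 73.3% of its UMIs in the Lama4-control WT group and 94.1% in the Lama5-control WT group, and venous-like cells alone held 65.7% and 72.5%. In venous-like cells it stood at 183 and 180 CPM in the Lama4-control WT libraries, at 203 CPM in the Lama4-/- library, at 99.5 and 92.5 CPM in the Lama5-control WT libraries, and at 199 and 165 CPM in the Tek-Cre:Lama5-/- libraries. The WT libraries of the Lama5 experiment were the lowest of the 7. Arterial-like cells held 14.8 to 41.1 CPM, a range that met that of microglia-like cells at 5.78 to 23.5 CPM, and capillary-like cells held 0.604 to 4.99 CPM. Myeloid cells of the Lama4 experiment were as high as venous-like cells. Monocyte or dendritic-like cells held 257 and 197 CPM in WT and 213 CPM in Lama4-/-, from 43 to 49 cells per library, and neutrophil-like cells held 213 and 386 CPM in WT and 159 CPM in Lama4-/-, from 14 to 39 cells. In the Lama5 experiment both classes had 0 Ptgs2 UMIs, from 3 to 14 cells per library, too few to compare. Fibroblast-like cells, only 11 to 44 per library, ranged from 0 to 397 CPM and cannot be placed in this order.

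Within the venous zone the gene was not even. Sub-cluster 15, led by Lrg1, Lcn2 and Ackr1, a chemokine-binding receptor of venules, held 435 to 592 CPM in every library. Sub-cluster 9, led by Il1r1, the interleukin-1 receptor, and Vcam1, a leukocyte adhesion molecule, held 34.9 to 240 CPM. Sub-cluster 3, led by Wnt5a, held 14.5 to 38.3 CPM. Ptgs2 was itself among the leading genes of sub-clusters 9 and 15, so these levels describe the clustering and are not a test. Sub-cluster 3 held 49.1% to 67.1% of the venous-like cells of each library. The rest lay mostly in sub-cluster 15 in the Lama4 experiment (25.1% to 27.7% of venous-like cells) and mostly in sub-cluster 9 in the Lama5 experiment (36.9% to 46.2%). In arterial-like cells the level was uneven as well, with 20.9 to 125 CPM in sub-clusters 12 and 14.

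**Figure D2:**
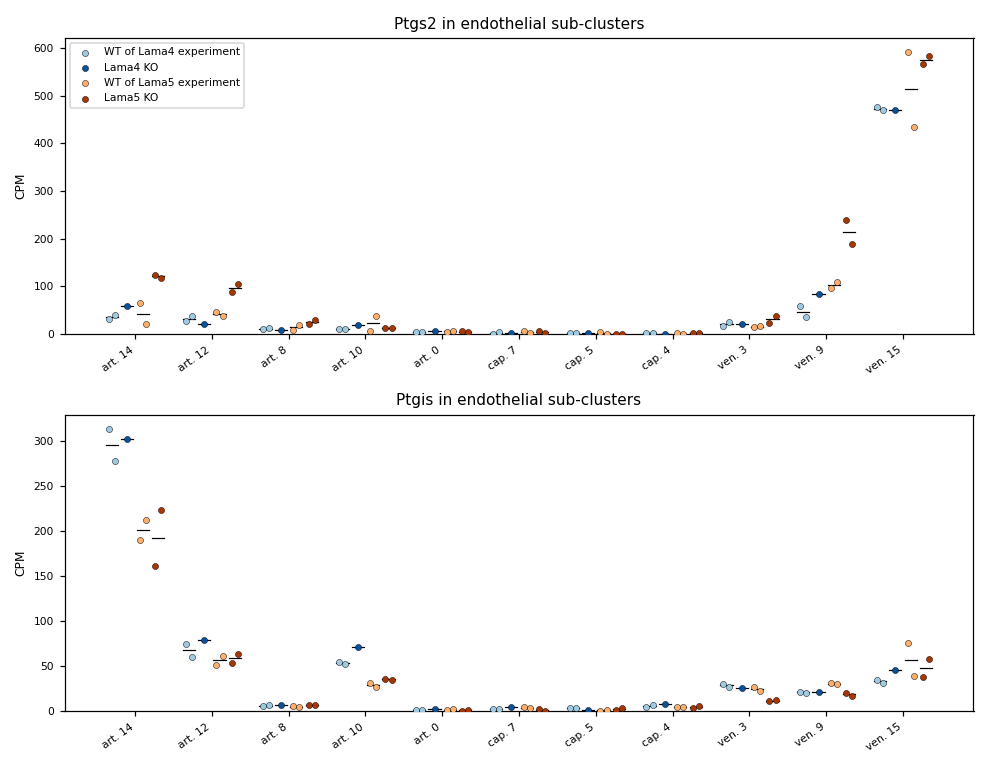
Ptgs2 and Ptgis levels in CPM for each library in the endothelial sub-clusters of the arterial-like, capillary-like and venous-like zones. Sub-cluster 15 carries the most Ptgs2 (435 to 592 CPM) and sub-cluster 14 the most Ptgis (160 to 314 CPM).

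The Ptgs2 difference between Tek-Cre:Lama5-/- and WT endothelium was known when the genes were chosen, and its values follow as a description without a p-value. All endothelial-like cells together held 32.9 and 32.8 CPM in the WT libraries and 70.1 and 59.8 CPM in the Tek-Cre:Lama5-/- libraries, a log2 fold change of 1.07 (SE 0.058). The venous and arterial zones differed by similar amounts, with 0.99 (SE 0.067) in venous-like cells and 0.96 (SE 0.117) in arterial-like cells. The difference between these zones was 0.02 with a 95% interval of -0.27 to 0.32. Arterial-like cells held 18.7 and 22.0 CPM in WT and 33.9 and 41.1 CPM in Tek-Cre:Lama5-/-, so the groups did not overlap in either zone. In these zones 9.89% (venous-like) and 9.16% (arterial-like) of all genes tested passed.

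The sub-clusters varied more than the zones. Sub-cluster 9 held 96.6 and 110 CPM in WT and 240 and 190 CPM in Tek-Cre:Lama5-/- (log2 fold change 1.12, SE 0.078). Sub-cluster 15, the one with the highest level, held 592 and 435 CPM in WT and 567 and 583 CPM in Tek-Cre:Lama5-/- (0.19, SE 0.163), and these groups overlapped. The interaction between the pair was -0.99 (SE 0.152). Sub-cluster 15 had only 29 to 41 cells in each library of the Lama5 experiment. In sub-cluster 14 the WT libraries held 64.3 and 21.7 CPM and the Tek-Cre:Lama5-/- libraries 125 and 119 CPM, and in sub-cluster 12 the values were 46.2 and 38.8 CPM against 88.5 and 105 CPM. Sub-cluster 10, also arterial-like, held 7.53 and 37.0 CPM in WT and 12.2 and 11.97 CPM in Tek-Cre:Lama5-/- (-0.68, SE 0.411). The groups overlapped, and the sign of this value comes from replicate 2 of the WT group. Sub-cluster 1, given no zone name and led by Adm and Atf3, had the largest value of those fitted, 1.80 (SE 0.353). Over all genes tested, 8.26% passed in sub-cluster 1, 3.02% in sub-cluster 12, 0.646% in sub-cluster 14, 0.162% in sub-cluster 15 and 0.342% in the interaction of sub-clusters 15 and 9. In microglia-like cells Ptgs2 was at 11.7 and 15.8 CPM in WT and at 15.6 and 5.78 CPM in Tek-Cre:Lama5-/-, a log2 fold change of -0.22 (SE 0.330) that lay below the endothelial one by 1.29 (SE 0.297).

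**Figure D3:**
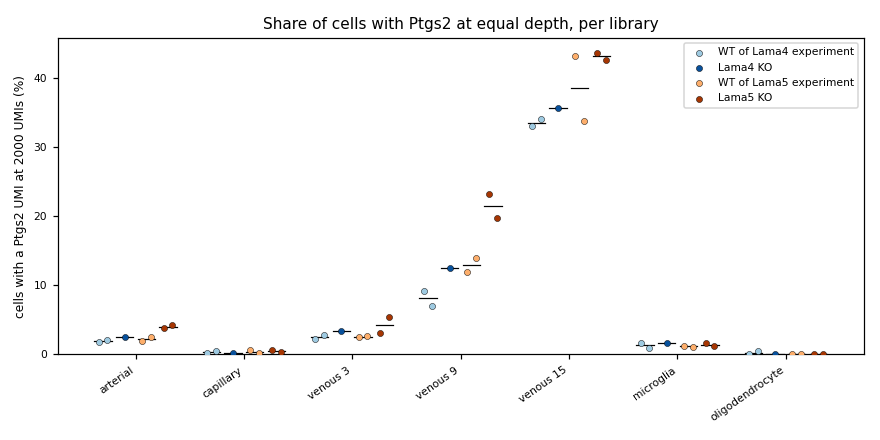
Share of cells with at least 1 Ptgs2 UMI in each library after thinning cells to 2000 UMIs and leaving out shallower ones, by endothelial zone and sub-cluster. In sub-cluster 9 the share is 12% and 13.9% in the Lama5-control WT libraries and 23.1% and 19.6% in the Tek-Cre:Lama5-/- libraries.

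At an equal depth of 2000 UMIs per cell, 8.81% and 8.52% of venous-like cells had a Ptgs2 UMI in the Lama5-control WT libraries, against 14.4% and 14% in the Tek-Cre:Lama5-/- libraries. Before thinning, the shares were 22.3% and 21.4% against 29.2% and 27.7%. Arterial-like cells went from 1.95% and 2.46% to 3.79% and 4.22% after thinning, and from 5.94% and 5.73% to 7.38% and 7.77% before it. Sub-cluster 15 held 43.2% and 33.8% in WT and 43.6% and 42.6% in Tek-Cre:Lama5-/-, which overlapped as its CPM did. In sub-cluster 3 the shares were 2.45% and 2.64% in WT and 3.07% and 5.39% in Tek-Cre:Lama5-/-, without overlap. Cells with under 2000 UMIs were left out, and in arterial-like cells these were 86 and 99 in WT against 171 and 223 in Tek-Cre:Lama5-/-. In venous-like cells they were 8 and 9 against 6 and 22. Oligodendrocyte-like cells, which should lack the gene, had a Ptgs2 UMI in 0 to 0.44% of cells after thinning. Before thinning, the share was 0.0929% to 0.165% in the Lama5 experiment, at median depths of 5054 to 7282.5 UMIs against 5710 to 6653.5 in venous-like and 3049 to 3989 in arterial-like cells. In the Lama4 experiment it reached 2.35%, from 2 of 85 cells. The venous-like and arterial-like shares of the Lama5 experiment lie above the background of that experiment.

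Ptgis (ENSMUSG00000017969, chromosome 2, 167191805 to 167240604, minus strand), the prostacyclin synthase, was highest in fibroblast-like and smooth muscle-like cells, followed by arterial-like and venous-like endothelium. Fibroblast-like cells held 115 to 255 CPM and smooth muscle-like cells 70.4 to 266 CPM, and these ranges overlapped. Arterial-like endothelium came next at 27.1 to 57.7 CPM, below every smooth muscle value, and its range overlapped that of venous-like endothelium at 17.3 to 32.5 CPM. In the Lama5-control WT libraries these zones were alike, at 27.1 and 28.0 CPM in arterial-like and 31.9 and 27.2 CPM in venous-like cells. Choroid plexus-like cells, at 0 to 37.6 CPM, overlapped both zones, and capillary-like endothelium held 2.00 to 4.21 CPM. Within the arterial zone sub-cluster 14, led by Cytl1, Fbln5 and Eln, genes of elastic matrix and larger arteries, held 160 to 314 CPM. The zone and class levels are descriptions, since the classes were clustered on the same cells.

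In venous-like cells Ptgis was lower in Tek-Cre:Lama5-/- libraries. It stood at 31.9 and 27.2 CPM in WT and at 18.2 and 17.3 CPM in Tek-Cre:Lama5-/-, and at 30.2, 27.4 and 32.5 CPM in the WT and Lama4-/- libraries of the other experiment. The Tek-Cre:Lama5-/- libraries were thus below the other 5. Ptgis fell by 0.67 on the log2 scale (SE 0.134, edgeR adjusted p = 7.2e-04). The fall was present in sub-cluster 3 (-0.96, SE 0.295, edgeR adjusted p = 0.0422, where 2.59% of genes passed) and in sub-cluster 9 (-0.65, SE 0.164, adjusted p = 0.00471, where 8.38% passed). In sub-cluster 15 the change was -0.33 (SE 0.427) and did not pass. The call in the venous zone was kept in every edgeR alternative, from -0.55 without replicate 1 of the WT group to -0.78 without its replicate 2. DESeq2 gave -0.67 with an unadjusted p of 0.00581 and no adjusted p.

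Arterial-like cells went the other way without passing the test. Ptgis stood there at 27.1 and 28.0 CPM in WT and at 27.3 and 31.8 CPM in Tek-Cre:Lama5-/-, a log2 fold change of 0.18 with a 95% interval of -0.04 to 0.41 (edgeR adjusted p = 0.396). The change in venous-like cells was lower than that in arterial-like cells by 0.84 on the log2 scale (interaction -0.84, SE 0.176, edgeR adjusted p = 0.00288), in a comparison where 0.455% of 11857 genes passed. That call was lost with DESeq2 (-0.84, adjusted p = 1) and without replicate 1 of the WT group (-0.70, edgeR adjusted p = 0.335) or replicate 2 of the Tek-Cre:Lama5-/- group (-0.70, edgeR adjusted p = 0.219). Smooth muscle-like cells held 88.4 and 74.1 CPM in WT and 70.8 and 70.4 CPM in Tek-Cre:Lama5-/-, a change of -0.11 (SE 0.118, edgeR adjusted p = 0.709) in a class where 5.6% of 9620 genes passed.

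Markers of other classes that hold Ptgis were summed in venous-like cells. Arterial markers (12 to 15 of 15 detected) summed to 697 and 668 CPM in WT and 772 and 766 CPM in Tek-Cre:Lama5-/-, with Gja5 at 0 in all 4 libraries. Smooth muscle markers (6 of 7 detected, Cnn1 at 0) summed to 18.9 and 18.6 CPM against 22.8 and 19.1 CPM. Fibroblast markers (3 or 4 of 7 detected, Lum at 0) summed to 0.544 and 1.05 CPM against 1.73 and 0.866 CPM. Choroid plexus markers (3 of 7 detected in WT and 6 of 7 in Tek-Cre:Lama5-/-, Aqp1 at 0) summed to 4.17 and 4.74 CPM against 52.0 and 41.1 CPM. The part of RNA from these classes in the Ptgis difference was not tested. At 2000 UMIs per cell, 5.43% and 4.60% of venous-like cells had a Ptgis UMI in WT and 2.90% and 3.12% in Tek-Cre:Lama5-/-. Reads of Ptgis lie beside the opposite-strand genes 1110018N20Rik and Gm14291, and the sources used here do not state whether counting used strand.

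**Figure D4:**
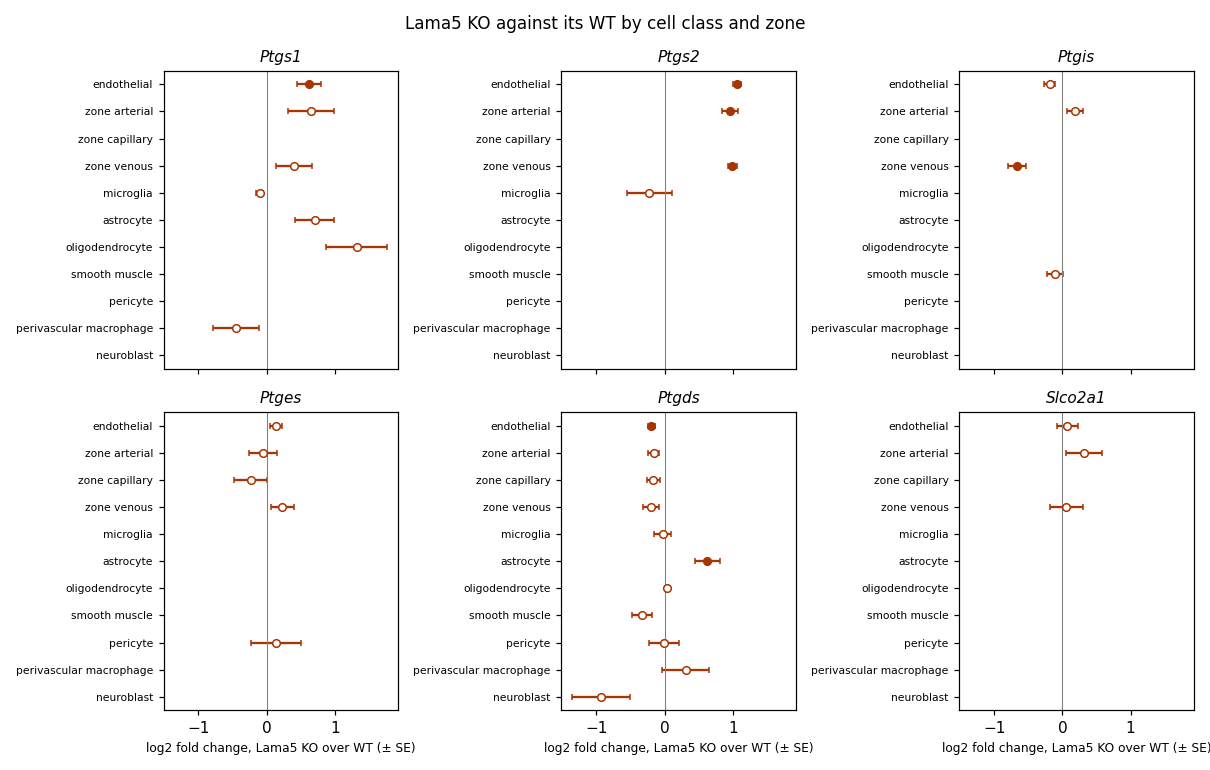
Log2 fold change of Tek-Cre:Lama5-/- over WT with its standard error for each gene by cell class and zone. Filled points passed edgeR's test at an adjusted p of 0.05, and genes that failed the filter on low counts are left out. Ptgis is below 0 in venous-like cells (-0.67) and above 0 in arterial-like cells (0.18). The filled Ptgs2 points repeat values known when the genes were chosen.

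Ptges (ENSMUSG00000050737, chromosome 2, 30889471 to 30929863, minus strand), the inducible prostaglandin E synthase, was led by fibroblast-like cells at 57.4 to 111 CPM and pericyte-like cells at 27.7 to 56.7 CPM, followed without overlap by venous-like endothelium at 12.9 to 20.04 CPM. Capillary-like cells held 10.0 to 21.3 CPM and arterial-like cells 6.79 to 10.4 CPM. Its spread over the zones was thus narrower than that of Ptgs2, with which it is usually paired in fever. In endothelial-like cells Ptges changed by 0.13 in Tek-Cre:Lama5-/- (SE 0.094, 95% interval -0.05 to 0.32, edgeR adjusted p = 0.361). In venous-like cells, where Ptgs2 was higher, Ptges stood at 12.9 and 15.6 CPM in WT and at 14.4 and 17.8 CPM in Tek-Cre:Lama5-/-, and the groups overlapped (0.23, 95% interval -0.10 to 0.56, edgeR adjusted p = 0.499). In capillary-like cells Ptges changed by -0.24 (SE 0.236, edgeR adjusted p = 0.74), where 3.14% of genes passed and 0 of the 2 genes of the set that were tested did (0 at an unadjusted p under 0.05). Pericyte-like cells, where 0.714% passed, held 37.5 and 43.2 CPM in WT and 56.7 and 27.7 CPM in Tek-Cre:Lama5-/-. The pseudogene Gm13400 overlaps the span of Ptges on the same strand, and its effect on Ptges counts was not tested.

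Ptgds (ENSMUSG00000015090, chromosome 2, 25466709 to 25470046, minus strand), the lipocalin-type prostaglandin D synthase, was a gene of oligodendrocyte-like and fibroblast-like cells. Oligodendrocyte-like cells held 13647 to 21621 CPM and fibroblast-like cells 6305 to 32340 CPM, with choroid plexus-like cells next at 1443 to 1758 CPM. Oligodendrocyte-like cells did not differ between WT (14975 and 13647 CPM) and Tek-Cre:Lama5-/- (14448 and 13718 CPM) beyond their spread, with a log2 fold change of 0.04 and a 95% interval of -0.02 to 0.09 (edgeR adjusted p = 0.495, 11.2% of genes passed). Endothelial-like cells held 69.3 and 80.5 CPM in WT and 62.6 and 60.9 CPM in Tek-Cre:Lama5-/-. Ptgds fell by 0.20 there on the log2 scale (SE 0.051, edgeR adjusted p = 0.00616).

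Oligodendrocyte markers moved with the endothelial Ptgds level. All 8 listed were detected in endothelial-like cells, and their summed level there was 1383 and 1370 CPM in WT and 1273 and 1276 CPM in Tek-Cre:Lama5-/-. As a share of the oligodendrocyte level, endothelial Ptgds was 0.463% and 0.590% in WT and 0.434% and 0.444% in Tek-Cre:Lama5-/-. The part of oligodendrocyte RNA in the endothelial Ptgds difference was not tested. The call was lost with DESeq2 (adjusted p = 0.155), with doublets kept (adjusted p = 0.222) and without replicate 2 of the WT group (-0.09, edgeR adjusted p = 0.320).

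Astrocyte-like cells held 128 and 189 CPM of Ptgds in WT and 241 and 264 CPM in Tek-Cre:Lama5-/-, without overlap. The log2 fold change was 0.63 (SE 0.180, edgeR adjusted p = 0.0238), where 9.75% of 8943 genes passed. Oligodendrocyte markers (8 of 8 detected) in these cells summed to 539 and 607 CPM in WT and 1277 and 1211 CPM in Tek-Cre:Lama5-/-, and microglial markers (7 of 7 detected) to 369 and 354 CPM against 1358 and 948 CPM. The part of this RNA in the Ptgds difference was not tested. The fold change became -0.16 under the stricter cell filter, and the call was lost with DESeq2, without replicate 1 of the WT group and without replicate 2 of the Tek-Cre:Lama5-/- group. Across the 7 classes other than endothelium that could be fitted, this was the single call among the 6 genes. The other small classes had few calls of any kind, with 1.17% of genes in perivascular macrophage-like cells and 0.415% in neuroblast-like cells.

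Set against the endothelial change, the Ptgds change was higher by 0.80 in astrocyte-like cells (SE 0.173, edgeR adjusted p = 0.00343, 4.23% of genes passed). That call was lost under the stricter cell filter (0.12, edgeR adjusted p = 0.897) and without replicate 1 of the WT group (0.60, edgeR adjusted p = 0.155). The change was higher by 0.20 in oligodendrocyte-like cells (SE 0.046, edgeR adjusted p = 9.05e-04, 4.12% passed). This call was lost with DESeq2 (0.22, adjusted p = 0.997), with doublets kept (0.12, edgeR adjusted p = 0.161), without replicate 2 of the WT group (0.07, edgeR adjusted p = 0.605) and without either Tek-Cre:Lama5-/- library (edgeR adjusted p = 0.151 and 0.0747). In neuroblast-like cells it was lower (-0.81, SE 0.185, edgeR adjusted p = 0.00618, 0.396% passed). The neuroblast-like value rests on 1 library, since Ptgds stood at 415, 399 and 391 CPM in 3 libraries and at 27.0 CPM in replicate 2 of Tek-Cre:Lama5-/-. Without that library the difference was 0.14.

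Slco2a1 (ENSMUSG00000032548, chromosome 9, 102988712 to 103096002, plus strand), the prostaglandin transporter, was low and had most of its UMIs in endothelial-like cells. Endothelial-like cells held 85.2% to 95.8% of its UMIs, at 5.01 to 9.77 CPM. Venous-like cells held 6.16 to 16.8 CPM and arterial-like cells 4.01 to 6.73 CPM, and both lay above capillary-like cells at 0.881 to 2.18 CPM. Sub-cluster 15, where Ptgs2 was highest, held 28.3 and 25.04 CPM in the Lama4-control WT libraries, 39.2 CPM in the Lama4-/- library, 50.1 and 46.6 CPM in the Lama5-control WT libraries, and 16.9 and 41.7 CPM in the Tek-Cre:Lama5-/- libraries. Sub-cluster 6, given no zone name, held 12.2 to 29.4 CPM. Fibroblast-like cells held 23.7 and 30.0 CPM in Lama4-control WT and 24.4 CPM in Lama4-/-, on 12 to 16 UMIs per library, and 0 to 12.4 CPM in the Lama5 experiment, on at most 1 UMI. In endothelial-like cells Slco2a1 was 5.12 and 6.57 CPM in WT and 5.01 and 6.62 CPM in Tek-Cre:Lama5-/-, a change of 0.07 with a 95% interval of -0.23 to 0.38 (edgeR adjusted p = 0.814). The groups overlapped.

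The rest of the pathway was described with a list of 48 genes, of which 47 were in the files: phospholipases, other synthases, transport and breakdown, receptors, the lipoxygenase branch and cytokine signals upstream of Ptgs2. In endothelial-like cells 32 were tested, and 8 were higher in Tek-Cre:Lama5-/- and 0 lower by edgeR's test (2 lower at an unadjusted p under 0.05), with a median log2 fold change of 0.10 against -0.001 over all genes tested, of which 18.8% passed in either direction. By DESeq2, 1 of 29 was higher and 0 lower. The 18.8% is edgeR's share and gives no background for the DESeq2 count. Pla2g4a, the cytosolic phospholipase that frees arachidonic acid, rose by 0.39 (SE 0.051, edgeR adjusted p = 9.6e-07). It stood at 43.4 and 46.6 CPM in WT endothelium and at 57.8 and 53.3 CPM in Tek-Cre:Lama5-/-, and it rose in venous-like cells (0.35, SE 0.078, edgeR adjusted p = 0.00211) and arterial-like cells (0.38, SE 0.079, edgeR adjusted p = 1.16e-04) alike. Il1a, an interleukin-1 ligand, rose by 0.87, Il6ra, an interleukin-6 receptor, by 0.24 and Ptges3, a further prostaglandin E synthase, by 0.09. Hpgd, which degrades prostaglandins, rose by 0.89, Hpgds, a haematopoietic prostaglandin D synthase, by 0.41, Ltc4s, of the leukotriene branch, by 0.49 and Tnf by 0.58. Hpgd, Hpgds, Il6ra and Ltc4s are abundant in the microglia-like cells here, and they moved alongside the microglial markers given above. The part of microglial RNA was not tested for any of the 8 higher genes, Il1a and Tnf included. In microglia-like cells the list gave 3 higher and 3 lower of 30, with a median of -0.01, beside 12.4% of all genes. Abcc4, an exporter of prostaglandins, changed by 0.04 (SE 0.027) in endothelial-like cells and did not pass, nor did Il1r1 (-0.001, SE 0.042).

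The Lama4-/- group is 1 library, so its values are ratios without a test, with exact 95% intervals that cover counting error only. Differences of at least 0.5 on the log2 scale that lay outside both WT libraries were counted, given at least 30 UMIs over the 3 libraries. In endothelial-like cells 4.77% of 12648 genes were past this limit, and 0 of the 6 were. Ptgs2 stood at 62.8 CPM against 64.1 and 60.3 CPM in WT, a ratio of 1.01 (0.936 to 1.08). Slco2a1 stood at 9.77 CPM against 7.36 and 6.48 CPM, a ratio of 1.41 (1.15 to 1.72). Both Slco2a1 and Ptgs1 (11.5 CPM against 8.66 and 7.90 CPM, ratio 1.38, 1.15 to 1.66) lay above their WT libraries while Ptgs2 lay between its own.

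By zone, Slco2a1 in venous-like cells was past the limit, at 16.8 CPM against 11.7 and 11.4 CPM (ratio 1.45, 1.08 to 1.93), where 7.76% of genes were. The share of these cells with a Slco2a1 UMI was 9.09% against 9.90% and 9.32% in WT. After thinning to 2000 UMIs it was 2.00% against 1.93% and 1.82%. Among unthinned cells of at least 2000 UMIs, those with a Slco2a1 UMI held 2.26 on average, against 1.88 and 1.79 in WT. Ptges in capillary-like cells was lower, at 12.9 CPM against 17.5 and 21.3 CPM (ratio 0.666, 0.480 to 0.911), where 7.34% were past it, and Ptgds in arterial-like cells was higher (ratio 1.42, 1.17 to 1.72), where 6.48% were. Ptgis in smooth muscle-like cells stood at 266 CPM against 200 and 191 CPM (ratio 1.36, 1.22 to 1.51) and stayed under the limit, while Ptgds in the same cells passed it (ratio 1.48, 1.05 to 2.06), where 12.2% of genes did. Ptges in astrocyte-like cells was at 18.7 CPM against 10.0 and 10.3 CPM (ratio 1.84, 1.11 to 3.06), where 11.3% of genes were past it. In pericyte-like cells, where 18% were, Ptges was higher (ratio 1.53, 0.947 to 2.44, an interval that includes 1) and Ptgds lower (ratio 0.647, 0.441 to 0.930), on 31 and 38 UMIs in the Lama4-/- library. Ptgs1 in microglia-like cells was under the limit (ratio 1.10, 1.06 to 1.14), where 7.62% were past it. Choroid plexus markers moved with this library: they summed to 1033 CPM in its endothelial-like cells against 158 and 101 CPM in WT, and their part in these ratios was not tested. Of the pathway list, 5 of 24 genes in venous-like cells were past the limit and higher and 0 lower, beside the 7.76% of all genes. Pla2g4a was among them, at 205 CPM against 124 and 124 CPM (ratio 1.66, 1.52 to 1.80). In all endothelial-like cells 0 of 34 were past the limit and higher and 3 lower, beside 4.77% of all genes, so Pla2g4a was not counted as higher there.

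The WT groups differed from each other in 4 of the 6 genes in endothelial-like cells, beside the 55.9% of all genes given above. They were prepared for separate experiments, so experiment, pool and library cannot be told apart, and the same WT libraries serve in the Tek-Cre:Lama5-/- comparison. In the Lama5-control WT group Ptgs2 was lower by 0.81 on the log2 scale (difference -0.81, SE 0.052), a value also known when the genes were chosen. Ptgs1 was lower there (-1.21, SE 0.160, edgeR adjusted p = 6.1e-06), as was Ptgis (-0.52, SE 0.070, edgeR adjusted p = 7.51e-06). Ptgds was higher (1.63, SE 0.067, edgeR adjusted p = 1.42e-12), beside 1210 and 1076 oligodendrocyte-like cells against 87 and 85. Ptges (-0.17, edgeR adjusted p = 0.122) and Slco2a1 (-0.14, edgeR adjusted p = 0.452) did not pass.

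These differences were uneven over the zones, apart from Ptgds, which was higher by 1.38 to 1.70 in each zone (34.5% of genes passed in capillary-like cells). Ptgs2 was lower by 0.83 in venous-like cells (-0.83, SE 0.057) and higher by 0.37 in arterial-like cells (SE 0.142). The venous-like cells of the WT groups lay in different sub-clusters: sub-cluster 15, with the highest level, was 27.7% and 26.6% of them in Lama4-control WT and 6.31% and 5.60% in Lama5-control WT. Within sub-cluster 9 the level went the other way, at 58.7 and 34.9 CPM in Lama4-control WT against 96.6 and 110 CPM. That sub-cluster had only 34 and 25 cells in Lama4-control WT, at median depths of 27055 and 18902 UMIs. In Lama5-control WT it had 262 and 257 cells, at 11514 and 11398 UMIs. Within sub-cluster 15 the groups overlapped, at 476 and 469 CPM in Lama4-control WT against 592 and 435 CPM. Ptgis was lower by 0.87 in arterial-like cells (-0.87, SE 0.095, edgeR adjusted p = 3.15e-08; 38.7% of genes passed) and differed by 0.11 in venous-like cells (edgeR adjusted p = 0.436; 41.5% of genes passed). In smooth muscle-like cells Ptgis was at 200 and 191 CPM in the Lama4-control WT libraries and at 88.4 and 74.1 CPM in those of the Lama5 experiment.

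Over the 18 classes and zones, and among 13029 genes, the closest patterns of mean level were described by Pearson's r, with no test since all points share libraries. Pla2g4a was among the 3 closest to Ptgs2 (r = 0.784), after Adh1 (0.794) and Tbc1d8 (0.789). Adh1, a retinol and alcohol dehydrogenase, was also closest to Slco2a1 (0.905). Ptgs1 was closest to Tpbgl (0.937) and Tlr7 (0.919), Ptgis to 2200002D01Rik (0.942) and Gstm2 (0.867), Ptges to Angptl4 (0.898) and Lama4 (0.851), and Ptgds to Hhip (0.839) and Zfp536 (0.835).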

How the data were processed

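Single-cell libraries were made with the Chromium 3' v3 kit after papain and Liberase digestion, per the labels' protocols. The authors deposited raw UMI counts per gene and barcode, made with Cell Ranger 3.1.0 per the file headers, and the submitters' processing notes also name mm10 and Seurat 3.1. The genome annotation and the use of strand are not given in the sources used here. Cells were filtered, scored for doublets within each library and clustered (numpy 2.4.6, scipy 1.17.1, igraph 0.11.9, leidenalg 0.10.2). Classes and zones were named where at least 3 listed markers were detected and enriched, and 6.659% of endothelial-like cells lay within 0.1 of a boundary between zone scores. Counts were summed per library and class and tested with edgeR 4.0.16 (quasi-likelihood test, TMM, low-count filter, Benjamini-Hochberg adjustment over all genes, threshold 0.05) in R 4.3.3, with DESeq2 1.42.0 as an alternative. On simulated counts for the endothelial-like comparison of 13001 genes, 73% of 200 changed genes were recovered, all with the right sign, with 3 false calls. The changed genes were drawn from those with over 200 UMIs in WT, with a fixed spread and preset fold changes. The recovered share thus does not hold for genes with fewer UMIs or for smaller changes. Lama4-/- ratios used a pseudocount of 0.5 CPM. The gene coordinates come from GENCODE M21, which held 30934 of the 31053 IDs.

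The 6 genes, the pathway list, the marker lists and the settings were chosen with earlier results of these data known, and the rule for counting Lama4-/- ratios was set after their values were seen. The text names the 6 genes, listed pathway genes and the 3 genes closest to each in pattern. Depth was 35479306 to 48314458 UMIs per library. The 95% intervals of levels, shares and Lama4-/- ratios are exact and cover counting error only, and those of edgeR fold changes are normal approximations from the standard error. The labels do not say that replicate numbers pair the libraries. The correlation of their deviations was -0.0268 over 13164 genes, which cannot exclude pairing since it rests on 2 pairs.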

Additional observations from a re-analysis of the deposited data

Results flagged for a closer look

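Several genes differed by unequal amounts in 2 places between Tek-Cre:Lama5-/- and WT libraries, by edgeR's test of the difference itself. DESeq2 called none of the differences between zones or between classes. How they changed without single replicates or with other cell filters is given above and below. The Ptgis change in venous-like endothelium was below that in arterial-like endothelium (-0.84 on the log2 scale). The Ptgs1 change in microglia-like cells was below that in endothelial-like cells (-0.71). The Ptgds change exceeded the endothelial one in astrocyte-like cells (0.80) and oligodendrocyte-like cells (0.20) and was below it in neuroblast-like cells (-0.81), the last through 1 library. For Ptgs2, whose response was known when the genes were chosen, the change in microglia-like cells was below the endothelial one (-1.29) and that in sub-cluster 15 below that in sub-cluster 9 (-0.99).

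In other cases the Lama4-/- library lay on 1 side of both its WT libraries and both Tek-Cre:Lama5-/- libraries lay on the other side of theirs. The pairs are listed because they show this order. The share of all genes that show it is not given, so no excess over other genes can be read from them. These differences between the knockouts were not tested, and each knockout has its own WT group. The log2 ratios of CPM to WT for Ptgis were 0.10 in Lama4-/- and -0.26 in Tek-Cre:Lama5-/- in endothelial-like cells, 0.34 and -0.42 in capillary-like cells (the latter from 5 and 5 UMIs against 11 and 9 in WT), 0.17 and -0.72 in venous-like cells, and 0.44 and -0.20 in smooth muscle-like cells. For Ptgds they were 0.24 and -0.28 in endothelial-like cells, 0.50 and -0.24 in arterial-like cells, and -0.22 and 0.67 in astrocyte-like cells. For Ptges they were 0.44 and -0.12 in arterial-like cells and 0.85 and -1.28 in astrocyte-like cells, the latter from 4 and 2 UMIs in Tek-Cre:Lama5-/- against 12 and 20 in WT. For Ptgs1 they were 0.14 and -0.19 in microglia-like cells and 0.12 and -0.52 in perivascular macrophage-like cells.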

How the results depend on the processing

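The counts below include Ptgs2, whose difference between Tek-Cre:Lama5-/- and WT and between the WT groups was known when the genes were chosen, so its calls are no support. The share of all genes called is not given for each changed setting, so the counts are no result about the genes as a set. The 3 genes called in endothelial-like cells (Ptgs1, Ptgds and Ptgs2) became 1 with DESeq2 (Ptgs2) and 1 to 3 when a replicate was left out, with 1 without Lama5-control WT replicate 2. The 1 call in the other classes became 0 with DESeq2 (883 genes at an unadjusted p under 0.05 in astrocyte-like cells), 0 with stricter cell filters, 2 with no filter on low counts, 2 with doublets kept and 1 to 3 when a replicate was left out. The 3 calls over the zones, 2 of them Ptgs2, became 1 with DESeq2 (Ptgs2), 7 over the sub-clusters (5 of them Ptgs2; chosen after seeing the data) and stayed at 3 when a replicate was left out. DESeq2 gave no adjusted p for 5 single fold changes, the venous-like and arterial-like Ptgis changes among them. The 6 interactions became 0 with DESeq2, which gave 114 genes at an unadjusted p under 0.05 between the venous-like and arterial-like zones, and they became 1 to 5 when a replicate was left out and 1, for Ptgs2, between the venous-like sub-clusters alone (chosen after seeing the data). The 4 calls between the WT groups became 8 when counted over gene and zone pairs (chosen after seeing the data). The 3 Lama4-/- ratios counted over endothelium and its zones became 5 with doublets kept, 5 with stricter filters and 4 to 7 when a WT replicate was left out.

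Of the single fold changes, 155 kept direction and side of the threshold, 26 lost the call and 3 reversed. The Ptgds change in astrocyte-like cells became -0.16 with stricter filters. The Ptgds difference between neuroblast-like and endothelial-like cells became 0.88 with doublets kept, and ranged from -3.64 without Tek-Cre:Lama5-/- replicate 1 to 0.14 without its replicate 2. The causes were not tested. With the replicate number as a block, the calls were 3 in endothelial-like cells, 2 in the other classes, with Ptgs1 in oligodendrocyte-like cells added, and 3 over the zones, and the interaction already holds the library as a block. The labels do not say that the numbers pair the samples. Leaving out sub-clusters 2 and 13 (chosen after seeing the data) kept 3 calls in endothelial-like cells. Levels of low genes such as Slco2a1, and sub-clusters with under 50 cells in a library, limit what could be detected.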
